A study of Homo sapiens with 6 samples.

Results

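The 50 G2/M and mitosis genes described here are a listed set of cyclins, kinases, kinetochore, spindle and chromosome genes, matched by symbol through GENCODE 44 to Ensembl genes of the count table, which lists 63241 genes. All 50 were matched to a single Ensembl gene each, 44 passed the filter on low counts and were tested, and 43 had at least 60 counts summed over the 6 libraries, the minimum for giving a fold change. The other 7 had 1 to 57 counts: AURKB with 57 counts, CENPA with 43, PTTG1 with 43, GTSE1 with 39, CDC25C with 33, SPC25 with 28 and NUSAP1 with 1. AURKB was tested but lay under that minimum, so none of the 7 enters the counts and medians given here.

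The cells were HT-1376, an established human bladder carcinoma line. One group of 3 libraries came from cells transfected with an siRNA against SHMT2, the mitochondrial serine hydroxymethyltransferase (siSHMT2, genotype labelled as SHMT2 knockdown), and the other 3 from cells given a non-targeting siRNA (siNC, genotype labelled WT). Both groups were transfected with a Lipofectamine reagent and collected 24 h after transfection, and no library of untransfected cells is among the 6. The siSHMT2 group stands for a single siRNA chosen from several designed, so effects of that sequence on other transcripts cannot be told apart from those of losing SHMT2. The study describes the libraries as biological replicates without saying whether they came from separate cultures, so the p-values measure the spread between these samples.

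G2/M and mitosis genes are transcribed late in the cell cycle and are low in resting cells. Cyclin A and cyclin B bound to CDK1 drive entry into mitosis, condensins and topoisomerase II compact and disentangle the chromosomes, kinetochores attach them to the spindle, and the checkpoint holds CDC20 and the anaphase-promoting complex back until all are attached. In bulk RNA the level of such a gene depends on how many cells are in G2 and mitosis and on the RNA per cell, and the libraries cannot tell these apart. The comparison asked whether the transcripts of this program differed between siSHMT2 and siNC cells, in a study that also followed proliferation and cell cycle stages.

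A short element near the transcription start, TTTGAA or its variant TTTAAA, is known as the cell cycle genes homology region (CHR) and is bound by repressor and activator complexes that restrict these genes to the late cell cycle. It was searched on both strands, from 250 bases before to 50 after each start, in RefSeq promoters of GRCh38.p14, which hold 42 of the 50 members with 54 starts. AURKA, TTK, BUB3, KNL1, TPX2, BIRC5, UBE2C and FOXM1 had no entry. The windows below are given 5′ to 3′ on the gene's strand with the CHR in capitals. They are shown because they place the element close to the start in members of each role, among them HMMR and CDCA8.
CCNB1: agcagtgcggggTTTAAAtctgaggctagg
CCNB2: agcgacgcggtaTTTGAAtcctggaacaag
PLK1: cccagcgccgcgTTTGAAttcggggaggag
BUB1B: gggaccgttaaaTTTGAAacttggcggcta
CENPA: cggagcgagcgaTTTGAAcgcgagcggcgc
KIF4A: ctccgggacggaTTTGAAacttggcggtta
PRC1: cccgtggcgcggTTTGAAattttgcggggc
HMMR: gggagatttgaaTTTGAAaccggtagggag
CDCA8: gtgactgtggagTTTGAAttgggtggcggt
MKI67: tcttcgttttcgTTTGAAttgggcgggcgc
CDC20: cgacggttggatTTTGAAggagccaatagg

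These windows lie at chr5:69167108-69167137 (CCNB1), chr15:59105105-59105134 (CCNB2), chr16:23678848-23678877 (PLK1), chr15:40161034-40161063 (BUB1B), chr2:26786026-26786055 (CENPA), chrX:70290058-70290087 (KIF4A), chr5:163460598-163460627 (HMMR), chr1:37692481-37692510 (CDCA8) and chr1:43358904-43358933 (CDC20), all on the plus strand, and on the minus strand at chr15:90994538-90994567 (PRC1) and chr10:128126435-128126464 (MKI67). The capitals begin 29 bases before the start in CCNB2, PLK1 and MKI67, 30 in CCNB1, 23 in BUB1B and CDCA8, 22 in HMMR, 18 in CENPA, 20 in PRC1, 34 in KIF4A and 65 in CDC20. In HMMR a further copy of TTTGAA directly precedes the one in capitals. TTTAAA reads the same on both strands, and shifted copies of the forms searched can overlap by some bases.

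TTTGAA was found at 32 of the 42 members with a promoter entry (76.2%), against 18.2% of 27305 genes and 14.1% of the tested genes with an entry. TTTAAA was found at 14 members (33.3%, against 14.5% of all genes), and either form at 38 (90.5%, against 27.9%). CCAAT, the box bound by NF-Y, was found at 32 members (76.2%), against 39.7% of all genes. A CHR form and CCAAT stood together in 28 members (66.7%) and in 11.2% of all genes. The E2F-type letters TTTGGCGC and TTTCCCGC were each found at 1 member (2.38%), against 0.795% and 1.98% of all genes. CCNA2, AURKB, BUB1 and CKAP2 held neither CHR form in these windows. A match of letters describes the sequence and is not evidence of binding.

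**Figure D1:**
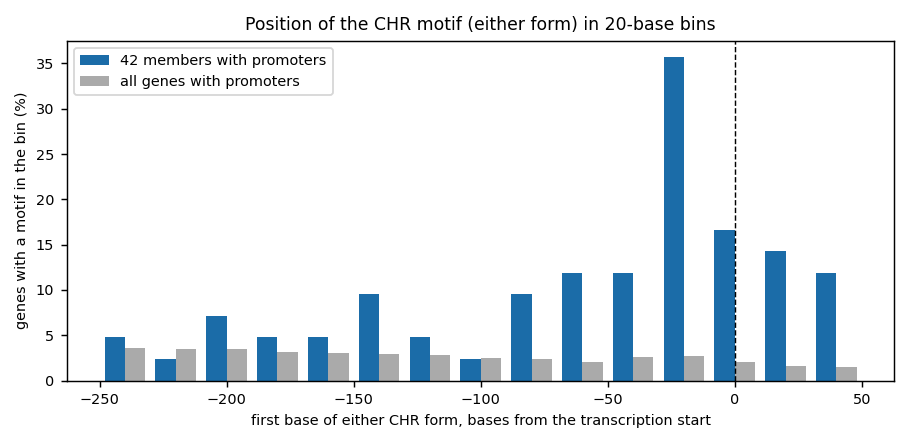
Share of genes (%, vertical axis) with TTTGAA or TTTAAA in each bin of 20 bases by distance of its first base from the transcription start (horizontal axis, bases), for the 42 members with a RefSeq promoter (blue) and all genes with one (grey). The tallest blue bar, from 30 to 10 bases before the start, holds 15 members (35.7%) against 2.74% of all genes.

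The position was narrower than the window. Within 60 bases before the start a CHR form was found at 25 of the 42 members (59.5%), against 6.85% of all genes. The 27 members with TTTGAA and at least 60 counts had fitted log2 fold changes (siSHMT2 over siNC) from -0.73 to 0.72 with a median of -0.06, and the 8 with a promoter entry but without TTTGAA had values from -0.74 to 0.41 with a median of -0.12. Both ranges lay on both sides of 0.

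The counts summed to 817748, 660559 and 890574 in siNC replicates 1 to 3 and to 533689, 818859 and 815061 in siSHMT2 replicates 1 to 3. SHMT2 itself (ENSG00000182199, chr12:57229573-57234935) had 28, 15 and 20 counts in siNC and 9, 2 and 5 in siSHMT2, with no overlap. Its FPKM (fragments scaled to gene length and library total) was 7.75 ± 1.97 in siNC and 2.48 ± 2.19 in siSHMT2 (SD, n = 3), with an exact permutation p of 0.1, two-sided, the smallest that 3 against 3 can give. The fitted log2 fold change was -1.78 (SE 0.48, 95% interval -2.74 to -0.82). In edgeR (quasi-likelihood test) its unadjusted p was 0.000559 and its Benjamini-Hochberg adjusted p was 0.93. Of 15 urothelial and epithelial markers 11 had at least 60 counts and UPK1A and UPK3A had none, and their summed FPKM was 2208 to 2486 in siNC and 2198 to 2463 in siSHMT2. Of 12 markers of blood, endothelial, fibroblast and muscle cells PTPRC, CD3E, VWF and DES had no counts, and the summed FPKM was 9.64 to 15.9 in siNC and 10.8 to 14.6 in siSHMT2.

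The G2/M and mitosis genes were expressed in both groups, and their fitted changes were split between higher and lower values. Their mean FPKM over the 6 libraries ran from 2.48 for KNL1 to 55.7 for CDC20, with a median of 11.6 against 7.84 for the 6070 tested protein-coding genes. Of the 43 members with at least 60 counts 32 lay above that median and 11 lay in its highest 20%. By role the median FPKM was 24.6 for chromosome genes, 12.7 for cyclins, kinases and phosphatases, 11.1 for spindle and cytokinesis genes and 4.12 for kinetochore genes. The 3 genes of mitotic exit and transcription with enough counts had a median of 27.3. The 5 members with the most counts held 37.6% of the 12856 member counts. CDC20 had 445 counts over the 6 libraries and KNL1 had 106, so these levels rest on few counts. They also carry the doubt about strand described below.

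Between the groups 22 of the 43 members had a higher fitted value in siSHMT2 and 21 a lower one. The median log2 fold change was 0.01 (quartiles -0.24 and 0.18, range -0.74 to 0.78), and the 6702 tested genes with at least 60 counts had a median of -0.00147, with 49.7% above 0. No member had an adjusted p under 0.05 by edgeR's test, as none of the 7207 tested genes did (0%). At an unadjusted p under 0.05 there were 3 members of 43 (6.98%), against 3.86% of the tested genes with at least 60 counts: HMMR, which was higher in siSHMT2, and CDCA8 and BUB1, which were lower. The background in a single direction was 1.92% for higher and 1.94% for lower genes. DESeq2 gave 1 such member, HMMR. Groups that did not overlap in log2 CPM (CPM, counts scaled to the library size after TMM normalization) were seen in 2 members (4.65%), HMMR higher and CDCA8 lower, against 9.13% of the tested genes with at least 60 counts (4.57% in each direction). Leaving out a library raised that count to between 7 and 15 members. The highest count, 15 (34.9%, against 20.9% of those genes), came without siSHMT2 replicate 3. With any other library left out the share was 16.3% to 20.9% of the members, against 18.1% to 19.6% of those genes.

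The precision of the comparison differed between members. The median standard error of the log2 fold change was 0.28 for members and 0.30 for all tested genes with at least 60 counts. For 11 members the 95% interval lay within a 1.5-fold change both ways, as it did for 27.7% of those tested genes. These were MKI67, SMC4, NCAPD2, NCAPG, TOP2A, CENPF, TPX2, ANLN, CKAP5, ECT2 and CCNA2, so for them a difference of 1.5-fold or more lay outside the interval. The intervals rest on a spread that the fit moderates across genes. MKI67 and SMC4 had the largest spread of the members beyond counting error (chi-square per degree of freedom of 7.89 and 3.80). SMC4, NCAPG and CCNA2 share exonic bases with opposite-strand genes that had more counts, so their values are uncertain. For the other 32 members the interval reached 1.5-fold in at least 1 direction, so that a change of that size was not outside the interval. The fitted change itself passed 1.5-fold in 5 members: HMMR, TTK, CDCA8, BUB1 and CENPE, as it did in 6.71% of the tested genes with at least 60 counts.

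**Figure D2:**
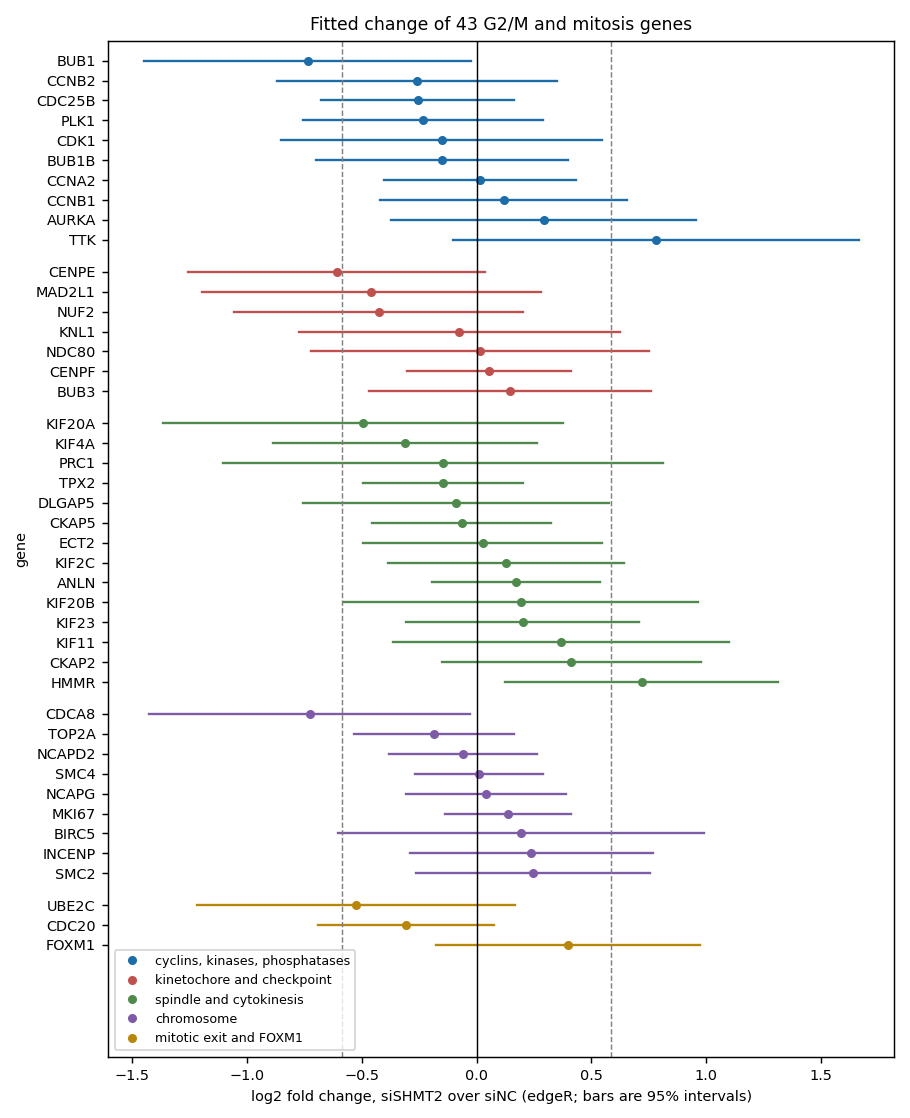
Fitted log2 fold change (horizontal axis, siSHMT2 over siNC, edgeR) of the 43 members with at least 60 counts (vertical axis), with 95% intervals as bars, coloured by role. Dashed lines mark a 1.5-fold change. The points lie on both sides of 0 in every role, and 40 of the 43 intervals include 0.

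Among the cyclins, kinases and phosphatases, 10 of 12 members had enough counts, 4 with a higher and 6 with a lower fitted value in siSHMT2, and the median log2 fold change was -0.15. The libraries of the mitotic cyclins overlapped between groups. CCNA2, cyclin A2, which pairs with CDK2 and CDK1, had FPKM of 28.5, 28.1 and 29.8 in siNC and 38.2, 26.2 and 24.6 in siSHMT2. The siSHMT2 libraries lay on both sides of siNC, and the log2 fold change was 0.01 (SE 0.21). CCNB1, cyclin B1, the partner of CDK1 at entry into mitosis, had FPKM of 25.3, 20.1 and 18.8 in siNC and 26.8, 25.9 and 17.5 in siSHMT2, with a log2 fold change of 0.12 (95% interval -0.42 to 0.65). CCNB2, cyclin B2, had FPKM of 12.7, 21.2 and 13.0 in siNC and 11.2, 14.6 and 12.3 in siSHMT2, with a log2 fold change of -0.26 (95% interval -0.87 to 0.35). The intervals of both B-type cyclins reached 1.5-fold. CDK1 had FPKM of 15.1, 12.4 and 15.6 in siNC and 11.5, 6.90 and 20.2 in siSHMT2, so that the lowest and the highest value both came from siSHMT2.

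CDC25B, a phosphatase that activates CDK1, had FPKM of 25.9, 20.9 and 33.5 in siNC and 19.8, 23.5 and 23.6 in siSHMT2, with a log2 fold change of -0.26 (SE 0.21). PLK1, the polo-like kinase of spindle assembly and mitotic entry, had FPKM of 11.5, 10.3 and 14.7 in siNC and 7.70, 10.9 and 11.9 in siSHMT2. Its log2 fold change was -0.23 (95% interval -0.76 to 0.29), and the groups overlapped. AURKA, the centrosomal Aurora kinase, had a log2 fold change of 0.29 (SE 0.33).

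The 3 checkpoint genes of this role with enough counts had fitted values on both sides of 0. BUB1 (ENSG00000169679, chr2:110637528-110678063), a kinase that recruits checkpoint proteins to kinetochores, had FPKM of 11.4, 6.04 and 7.46 in siNC and 6.97, 4.22 and 4.24 in siSHMT2. A single siSHMT2 library reached into the siNC range, and the means were 8.29 ± 2.77 and 5.14 ± 1.58 (SD, n = 3; exact permutation p = 0.2). The log2 fold change of BUB1 was -0.74 (95% interval -1.45 to -0.02), with an unadjusted p of 0.0431 and an adjusted p of 0.999 by edgeR's test. TTK (MPS1), the kinase that starts checkpoint signalling, had FPKM of 4.596, 2.44 and 2.71 in siNC and 7.04, 3.28 and 6.92 in siSHMT2. These groups overlapped, and the log2 fold change of TTK was 0.78 (95% interval -0.10 to 1.66) from 74 counts in all. BUB1B (BubR1), which inhibits CDC20, had a log2 fold change of -0.15 (SE 0.27).

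Of the 9 kinetochore and checkpoint genes 7 had enough counts, 3 with a higher and 4 with a lower fitted value, with a median of -0.07. CENPF, a large protein of the outer kinetochore, had FPKM of 11.2, 9.27 and 12.1 in siNC and 12.02, 9.26 and 12.8 in siSHMT2. The ranges almost coincided, and the log2 fold change was 0.05 (95% interval -0.30 to 0.41). CENPE, a kinesin that moves chromosomes to the metaphase plate, had FPKM of 3.92, 5.89 and 3.85 in siNC and 2.79, 1.96 and 4.07 in siSHMT2. Here siSHMT2 replicate 3 lay within the siNC range and the other two below it. The log2 fold change of CENPE was -0.61 (95% interval -1.25 to 0.04), with an exact permutation p of 0.3 for FPKM.

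NUF2 and NDC80 are partners in the complex that binds microtubules. NUF2 had FPKM of 24.3, 23.1 and 15.4 in siNC and 14.3, 9.33 and 22.5 in siSHMT2, with a log2 fold change of -0.43 (SE 0.31). NDC80 had FPKM of 17.3, 7.12 and 8.45 in siNC and 7.05, 12.6 and 12.7 in siSHMT2, with a log2 fold change of 0.02 (SE 0.37). The partners thus had different orders of libraries. MAD2L1 (MAD2) and BUB3, both parts of the checkpoint complex, had log2 fold changes of -0.46 (SE 0.37) and 0.15 (SE 0.30).

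Of the 16 spindle and cytokinesis genes 14 had enough counts, 8 with a higher and 6 with a lower fitted value, with a median of 0.08. TPX2, which targets AURKA to the spindle, had FPKM of 42.1, 31.1 and 36.4 in siNC and 29.1, 30.1 and 39.1 in siSHMT2, with a log2 fold change of -0.15 (SE 0.17). ANLN, a scaffold of the contractile ring, had FPKM of 28.9, 18.2 and 22.5 in siNC and 21.4, 27.1 and 29.3 in siSHMT2, with a log2 fold change of 0.17 (SE 0.18). CKAP5, a microtubule polymerase, had FPKM of 14.2, 10.1 and 13.6 in siNC and 12.3, 12.8 and 11.3 in siSHMT2, with a log2 fold change of -0.06 (SE 0.19). In all 3 genes the groups overlapped.

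HMMR (ENSG00000072571, chr5:163460203-163491941), a microtubule-associated protein of the spindle also known as a hyaluronan receptor, had the smallest unadjusted p of the members. Its FPKM was 11.4, 9.04 and 7.82 in siNC and 15.5, 10.9 and 19.9 in siSHMT2, with means of 9.40 ± 1.80 and 15.5 ± 4.501 (SD, n = 3; exact permutation p = 0.2). On the FPKM scale siSHMT2 replicate 2 lay under siNC replicate 1, and in TMM-scaled log2 CPM the groups did not overlap. The log2 fold change of HMMR was 0.72 (SE 0.29, 95% interval 0.12 to 1.31), with an unadjusted p of 0.0189 and an adjusted p of 0.999 by edgeR's test. Without siSHMT2 replicate 3 the log2 fold change of HMMR was 0.48 with an unadjusted p of 0.153.

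The motor KIF11, which slides spindle microtubules apart, had FPKM of 6.43, 2.06 and 3.72 in siNC and 4.01, 5.00 and 6.69 in siSHMT2, with a log2 fold change of 0.37 (SE 0.36). CKAP2, a microtubule-associated protein, had FPKM of 10.8, 7.09 and 9.28 in siNC and 10.3, 11.8 and 13.9 in siSHMT2, with a log2 fold change of 0.41 (SE 0.28). A single siSHMT2 library of CKAP2 lay within the siNC range. The genes of the central spindle, which organises cytokinesis, were PRC1 with a log2 fold change of -0.15 (SE 0.47), KIF4A with -0.31 (SE 0.28), KIF20A with -0.49 (SE 0.43), KIF23 with 0.20 (SE 0.25) and ECT2 with 0.03 (SE 0.26).

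All 9 chromosome genes had enough counts, 6 with a higher and 3 with a lower fitted value, with a median of 0.04. MKI67 (Ki-67), the surface protein of mitotic chromosomes and the usual marker of cycling cells, had the most counts of all members, 1704. Its FPKM was 30.1, 28.5 and 27.1 in siNC and 38.8, 31.3 and 24.7 in siSHMT2, with means of 28.6 ± 1.50 and 31.6 ± 7.03 (SD, n = 3; exact permutation p = 0.6). The siSHMT2 values enclosed the siNC values, and the log2 fold change of MKI67 was 0.14 (95% interval -0.14 to 0.41). TOP2A, topoisomerase IIα, had FPKM of 31.6, 20.7 and 26.4 in siNC and 19.4, 20.8 and 28.4 in siSHMT2, with a log2 fold change of -0.19 (95% interval -0.53 to 0.16). The groups of TOP2A overlapped as well.

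Condensin is the complex that compacts chromosomes. SMC4, an ATPase of its core, had FPKM of 50.5, 48.9 and 54.1 in siNC and 46.2, 44.2 and 63.5 in siSHMT2, with a log2 fold change of 0.01 (95% interval -0.27 to 0.29). NCAPD2, a condensin I subunit, had FPKM of 33.2, 26.7 and 31.2 in siNC and 29.9, 29.1 and 28.5 in siSHMT2, with a log2 fold change of -0.06 (SE 0.16). The siSHMT2 values of NCAPD2 lay inside the siNC range. NCAPG, a further subunit of condensin I, and SMC2, the partner of SMC4, had log2 fold changes of 0.04 (SE 0.17) and 0.25 (SE 0.25).

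The chromosomal passenger complex, which corrects faulty attachments, comprises CDCA8 (borealin), INCENP, BIRC5 (survivin) and the kinase AURKB. CDCA8 (ENSG00000134690, chr1:37692481-37709719) had FPKM of 17.5, 10.9 and 12.3 in siNC and 7.90, 10.8 and 5.69 in siSHMT2, with means of 13.6 ± 3.51 and 8.14 ± 2.57 (SD, n = 3; exact permutation p = 0.1). Every siSHMT2 library lay below every siNC library, but the nearest pair, 10.82 and 10.85, differed by little. The log2 fold change of CDCA8 was -0.73 (SE 0.35, 95% interval -1.43 to -0.03), with an unadjusted p of 0.0423 and an adjusted p of 0.999 by edgeR's test. INCENP had FPKM of 10.7, 11.04 and 13.6 in siNC and 20.5, 13.7 and 8.95 in siSHMT2, with a log2 fold change of 0.24 (SE 0.26). BIRC5 had a log2 fold change of 0.20 (SE 0.40), so the fitted values of the complex lay on both sides of 0.

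In mitotic exit and transcription, 3 of 4 members had enough counts, 1 with a higher and 2 with a lower fitted value, with a median of -0.31. CDC20, the activator of the anaphase-promoting complex and the member with the highest FPKM, had 58.5, 69.9 and 56.2 in siNC and 55.9, 50.2 and 43.5 in siSHMT2. UBE2C, the ubiquitin-conjugating enzyme of the same complex, had FPKM of 37.5, 34.8 and 25.8 in siNC and 16.4, 25.4 and 24.2 in siSHMT2. On the FPKM scale all siSHMT2 libraries of both genes lay below all siNC libraries (exact permutation p = 0.1 for each), while in TMM-scaled log2 CPM the groups overlapped. With CDCA8, 3 of the 43 members stood apart in FPKM (6.98%), against 9.22% of the tested genes with at least 60 counts. The log2 fold changes were -0.31 for CDC20 (95% interval -0.69 to 0.08) and -0.52 for UBE2C (95% interval -1.21 to 0.17). FOXM1, the transcription factor that activates many of these genes, had FPKM of 8.61, 8.52 and 10.4 in siNC and 15.3, 12.03 and 9.67 in siSHMT2, with a log2 fold change of 0.40 (95% interval -0.18 to 0.97).

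**Figure D3:**
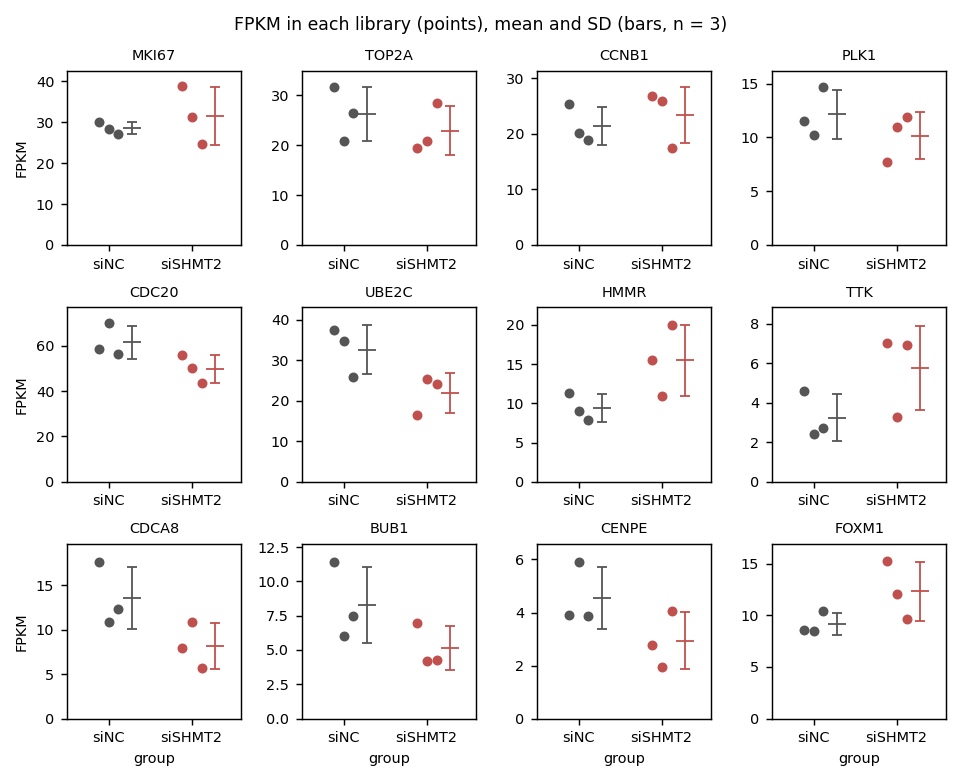
FPKM (vertical axes, from 0, a separate scale for each gene) of 12 members in the siNC (grey) and siSHMT2 (red) libraries. Points are libraries in the order of replicates 1 to 3, and bars beside them give the mean and SD (n = 3). The groups stand apart in CDC20, UBE2C and CDCA8 and overlap in the other 9 genes. In FPKM the groups stood apart in 6.98% of the 43 members with at least 60 counts and in 9.22% of such tested genes.

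The unadjusted calls changed when single libraries were left out, where fewer values are compared, and for CDCA8 and BUB1 also with the method. HMMR kept an unadjusted p under 0.05 in 12 of 14 alternatives and lost it without siNC replicate 3 or siSHMT2 replicate 3. CDCA8 kept it in 10 of 14 and lost it with DESeq2 and without siNC replicate 1, siSHMT2 replicate 1 or siSHMT2 replicate 3. BUB1 kept it in 7 of 14 and lost it without siNC replicate 1, siSHMT2 replicate 2 or siSHMT2 replicate 3, with DESeq2, both limma fits and the replicate block. Without siSHMT2 replicate 3 the members under that threshold were CENPE with a log2 fold change of -0.94 (unadjusted p of 0.0117), NUF2 with -0.84 (0.0195) and MKI67 with 0.30 (0.0348) by edgeR's test, with adjusted p-values of at least 0.719.

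Summed over the 50 members, the share of all counts was 0.307, 0.259 and 0.284% in siNC and 0.288, 0.268 and 0.291% in siSHMT2, with means of 0.283 ± 0.0238% and 0.282 ± 0.0124% (SD, n = 3). The summed CPM was 3121, 2836 and 2874 in the siNC libraries, and 2982, 2863 and 2976 in the siSHMT2 libraries, a log2 ratio of the means of -0.00154. The spread between siNC libraries exceeded the difference between groups. Within the 43 members, the median deviation from a gene's mean log2 CPM was 0.09, -0.08 and -0.01 in siNC and -0.03, -0.02 and 0.08 in siSHMT2. The library siSHMT2 replicate 3 held the lowest value in 11 members and the highest in 10, so its members did not deviate in a single direction.

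**Figure D4:**
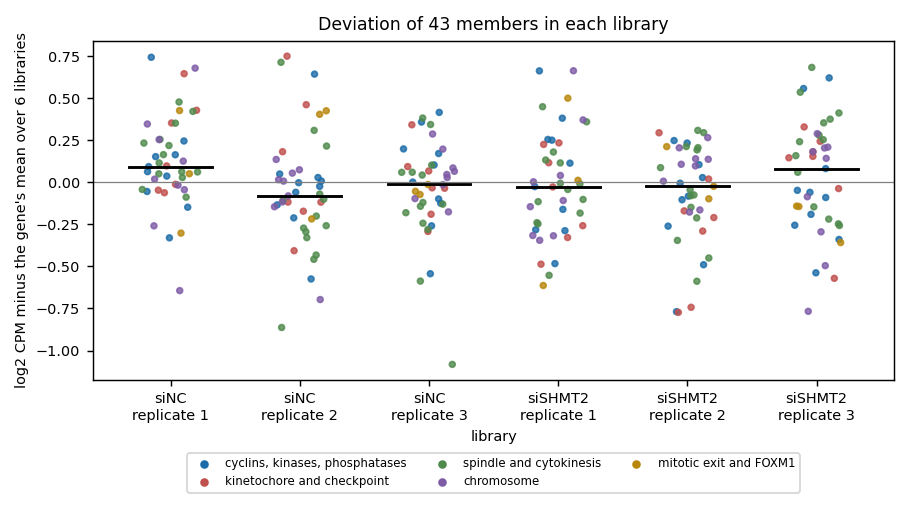
Deviation of each of the 43 members from its own mean over the 6 libraries (vertical axis, log2 CPM) in each library (horizontal axis), coloured by role, with black lines at the medians. The medians run from -0.08 in siNC replicate 2 to 0.09 in siNC replicate 1, and both extremes are siNC libraries.

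Spread beyond counting error within the groups was common to members and other genes, with a median chi-square per degree of freedom of 1.55 for members and 1.57 for all. MKI67 had 7.89, the highest of the members, followed by SMC4 with 3.80, INCENP with 3.65 and PRC1 with 3.53. The siSHMT2 SD of FPKM was larger than the siNC SD in 20 of the 43 members.

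Several members share exonic bases with a gene on the opposite strand. The kit marks strand, but the setting used to count is not stated, so reads of such partners may not be told apart and the values of these members are uncertain. Nor is it known that each gene's own strand was counted, so the doubt extends to members without a partner. By GENCODE 44 this concerned 16 of the 50 members in 19 pairs, and the opposite gene had more counts in 9 pairs of 8 members. SMC4 had 1255 counts and TRIM59, which covers 1553 of its exonic bases (19.0%), had 24038. PRC1, the crosslinker of the central spindle, had 70 counts and PRC1-AS1, which covers 1892 of its exonic bases (34.3%), had 8583. NCAPG had 572 counts against 3808 for LCORL, FOXM1 170 against 2009 for ITFG2, and CCNA2 358 against 1566 for EXOSC9. By counts TRIM59 ranked 15 of the 63241 genes listed, PRC1-AS1 54 and LCORL 158. The log2 fold changes of these opposite genes were -0.08 (SE 0.09) for TRIM59, -0.04 (SE 0.10) for PRC1-AS1, -0.15 (SE 0.11) for LCORL, 0.16 (SE 0.12) for ITFG2 and -0.04 (SE 0.14) for EXOSC9. The pairs with more counts on the opposite gene also include KIF20A with BRD8 and CDC23, CDC25C with FAM53C, and NUSAP1, which had 1 count, with OIP5, which had 21. Of the members called at an unadjusted p, CDCA8 and BUB1 have no such partner, and the partner of HMMR, HMMR-AS1, had 1 count. The lack of a partner does not show that a gene was counted on its own strand. Neither the strand counted nor the part of opposite-strand reads in the members' values was tested.

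A further 7 lists of mitosis genes held 95 genes outside the members, of which 62 had at least 60 counts. Of these 26 had a higher and 36 a lower fitted value in siSHMT2, with a median log2 fold change of -0.04. At an unadjusted p under 0.05 there were 0 higher and 3 lower genes by edgeR's test (4.84%, against 3.86% of tested genes with at least 60 counts). None had an adjusted p under 0.05. The same 3 were the only genes of the 62 whose groups did not overlap in log2 CPM (4.84%, against 9.13% of those tested genes). CDC26, a small subunit of the anaphase-promoting complex, had FPKM of 37.9, 26.1 and 14.2 in siNC and 12.9, 9.81 and 12.7 in siSHMT2, with a log2 fold change of -1.13 (SE 0.45) from 75 counts. KIF18B, a kinesin of astral microtubules, had a log2 fold change of -0.76 (SE 0.36), and ENSA, an inhibitor of the phosphatase PP2A-B55 at mitotic entry, had -0.31 (SE 0.15). Without siNC replicate 1 none of the 62 genes kept an unadjusted p under 0.05, and DESeq2 gave 1.

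By list, the median log2 fold change was -0.08 for 11 genes of the anaphase-promoting complex, 0.03 for 10 of cohesin, which holds sister chromatids together, and 0.05 for 8 further kinetochore genes. It was -0.06 for 15 further spindle genes, -0.19 for 4 further condensin subunits and -0.09 for 8 genes that control mitotic entry. The 6 genes of the DREAM and MMB complexes, which bind the CHR, had a median of -0.06.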

How the data were processed

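HT-1376 RNA was captured on mRNA beads, and 6 libraries, 3 siSHMT2 and 3 siNC, were prepared with a kit that keeps strand and were read from both ends. The authors checked reads with FastQC 0.11.9, trimmed them with fastp 0.23.4 and aligned them to GRCh38 with HISAT2 2.2.1; how reads were counted (program, strand setting, annotation release) is not given in the sources used here. The deposited counts are whole numbers per Ensembl gene without normalization. The deposited FPKM values were made by the authors from the counts, the listed gene length and the summed counts of the library, and differed from recomputed values by at most 2.28e-14 of the value. The counts summed to 533689 to 890574 per library (median count of tested genes 25), which limits the precision of low genes. These totals are what the table assigns to genes, far fewer than the reads the study describes as sequenced, and the reason is not given in the sources used here.

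Symbols, exons and strands came from GENCODE 44. Counts were compared in R 4.3.3 with edgeR 4.0.16 (TMM, filterByExpr, quasi-likelihood test, two-sided, Benjamini-Hochberg adjustment over the 7207 genes tested, common biological coefficient of variation 0.127). For single genes, an exact permutation test (two-sided, scipy 1.17.1) was run on FPKM. Log2 CPM used a prior count of 2. Promoters were RefSeq sequences of GRCh38.p14. The pipeline was tested on simulated counts. Alternatives were DESeq2 1.42.0, RLE size factors, library size only, no filter, genes with 10 or more counts in each library, log2 FPKM tested in limma 3.58.1 (pseudocounts 1 and 0.1), a replicate block, each library left out, a minimum of 120 counts, and members without opposite-strand exons. Figures were drawn with matplotlib 3.10.9.

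The members and lists were chosen with earlier results of these data known. The rule for naming genes took SHMT2, the 3 members with the most counts in each role, the 5 with the smallest p in each direction, members whose groups did not overlap, MKI67 and TOP2A, members under 60 counts by their counts, and other mitosis genes with an unadjusted p under 0.05. Members outside the rule, such as CCNB1, CCNB2, CDK1, NDC80 and INCENP, and the opposite-strand partners were added to complete a complex, role or overlap after values were seen.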

Additional observations from a re-analysis of the deposited data

How the results depend on the processing

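No member had an adjusted p under 0.05 in any of the 16 alternatives, and the median log2 fold change of the members stayed between -0.06 and 0.02. At an unadjusted p under 0.05 the 3 members became 1 with DESeq2 and 1 with a minimum of 120 counts, and the 3 other mitosis genes became 1 with DESeq2 and 0 to 4 with a library left out. The 2 members whose groups did not overlap became 1 with a minimum of 120 counts and 1 without opposite-strand exons. With library size only and in both limma fits they were 3, CDC20, CDCA8 and UBE2C (6.98%, against 9.22% of tested genes with at least 60 counts). Without the filter the 2 were CDC20 and HMMR, and with at least 10 counts in every library CDC20 and CDCA8. With a library left out there were 7 to 15, where fewer values are compared and the share over such tested genes was 18.1% to 20.9%. The median of the kinetochore genes was -0.25 with at least 10 counts in every library. That of mitotic exit and transcription turned from -0.31 to 0.0397 under the same filter and to 0.0458 with a minimum of 120 counts, where fewer of its genes remain. That of the chromosome genes was 0.17 without opposite-strand exons, and that of the cyclins, kinases and phosphatases was -0.171 to -0.0601 with a library left out.

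Of the 22 named members 17 kept their direction throughout, and 11 of 305 values reversed, none past the threshold. SMC4 was at -0.0135 (pseudocount 1) and -0.0140 (pseudocount 0.1) in the limma fits. With a library left out the log2 fold changes ranged from -0.17 to 0.14 for CCNA2, -0.0407 to 0.177 for CENPF, -0.155 to 0.0124 for CKAP5, -0.0175 to 0.30 for MKI67 and -0.17 to 0.10 for SMC4; the cause was not tested. SHMT2 ranged from -2.58 without siSHMT2 replicate 1 to -1.31 without siSHMT2 replicate 2, with adjusted p-values of 0.20 to 1.00. SHMT2, TTK, KIF11 and UBE2C were not tested with at least 10 counts in every library.

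Over all genes the number with an unadjusted p under 0.05 was 277 with edgeR, 117 with DESeq2 and 699 without the filter. The replicate block gave 2 members and 304 genes with an unadjusted p under 0.05. The smallest adjusted p of all genes by edgeR's test was 0.0852 with the block and 0.932 in the same fit without it. Without the block it was 0.262 with library size only. With a library left out it ran from 0.0462 to 0.999. The lowest came without siSHMT2 replicate 3, where 1 gene, not a member, lay under 0.05. Same-numbered libraries correlated at -0.02, 0.05 and -0.01 in their deviations from the group means. At a median count of 25 such values cannot exclude a shared batch, and whether the numbers mark pairs is not known. No fold change was given for the 7 members under 60 counts, and for 32 members the interval reached 1.5-fold; the parts of depth, spread between libraries and 3 libraries per group in its width were not separated.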

Other observations

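S phase and DNA replication genes, which are expressed earlier in the cell cycle, were listed for comparison. Of 40 such genes 34 had at least 60 counts, 12 with a higher and 22 with a lower fitted value in siSHMT2, and their median log2 fold change was -0.08. GINS3, a subunit of the replicative helicase, was the one gene of the 34 (2.94%, against 3.86% of the tested genes with at least 60 counts) with an unadjusted p under 0.05 by edgeR's test, with a log2 fold change of -1.23 (SE 0.47) from 69 counts. Its FPKM was 7.64, 6.15 and 5.96 in siNC and 3.51, 3.81 and 1.15 in siSHMT2, with no overlap. Groups that did not overlap were seen in 5 of the 34 genes (14.7%), against 9.13% of the tested genes with at least 60 counts.

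The same letters were searched at the starts of the S phase genes. TTTGAA was found at 1 of 45 S phase starts (2.22%) and at 35 of 54 starts of G2/M and mitosis genes (64.8%), against 15.2% of all starts. TTTAAA was found at 5 (11.1%) and 15 (27.8%), against 12.2% of all starts. TTTGGCGC was found at 8 (17.8%) and TTTCCCGC at 10 (22.2%) of the S phase starts, against 1 of 54 (1.85%) each in the G2/M and mitosis genes. Their shares over all starts were 0.652% and 1.63%. CCAAT was found at 62.2% of the S phase starts and 68.5% of the G2/M and mitosis starts, against 34.6% of all starts.

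GATA3, a transcription factor of the urothelium, was the only one of the 11 urothelial and epithelial markers with at least 60 counts (9.09%, against the same 3.86%) to have an unadjusted p under 0.05 by edgeR's test, and its adjusted p was 0.999. The median log2 fold change of the 11 markers was 0.01. GATA3 had FPKM of 14.7, 15.2 and 18.9 in siNC and 27.96, 20.2 and 23.9 in siSHMT2 and a log2 fold change of 0.54 (SE 0.23).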
